A study of Mus musculus with 8 samples.

Results

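The matrix metalloproteinases (Mmp genes), the ADAM and ADAMTS proteases and their tissue inhibitors (Timp genes) were described in the ventral lobe of the mouse prostate. Members were taken by gene symbol: a probe set counted if its annotation gave it 1 gene symbol beginning with Mmp, Adam, Adamts or Timp and then a digit. This gave 54 genes with 83 probe sets, out of 12393 genes with 20380 such probe sets: 18 Mmp, 25 Adam, 7 Adamts and 4 Timp genes. One further probe set, annotated to Adam1a and a second gene, was left out. The study compared normal ventral prostate of male FVB mice, 4 arrays labelled wild type, with that of male FVB mice carrying a polyoma virus middle T transgene, 4 arrays here called MT, all at 8 weeks of age. The sources used here do not name the promoter of the transgene, or say whether each array holds RNA of its own mouse. The p-values therefore measure the spread between these arrays, which may be technical.

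MMPs are zinc-dependent endopeptidases that cut collagens, laminins, proteoglycans and many cell-surface proteins, and most are secreted as inactive precursors. ADAMs are membrane-anchored relatives, several of which release growth factors, cytokines and adhesion molecules from the cell surface (shedding). ADAMTS proteases are secreted, and those of the proteoglycanase group cut versican and aggrecan. TIMPs bind the active sites of these enzymes. In the prostate, glandular epithelium lies on a basement membrane within a sheath of smooth muscle and fibroblasts, and both compartments make members of these families. Fewer cells of a type and less RNA per cell cannot be told apart in bulk tissue.

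Levels are RMA signals on a log2 scale, and differences on that scale are given as the MT mean minus the wild-type mean. The 8 arrays had medians from 6.21 to 6.23. The probasin gene Pbsn, a marker of the prostatic secretory cell, read 13.28 ± 0.38 (SD, n = 4) in wild type and 9.12 ± 0.68 in MT. Of 5 measured seminal vesicle genes 0 passed the test in limma, with differences from -0.15 to 0.07 (Svs5 at 0.00 ± 0.10) and 0 at an unadjusted p under 0.05. Svs4 and Svs6 were within background on all 8 arrays, and the list's summed signal, as log2 of the sum of linear signals, was 6.11 to 6.31 in wild type and 6.08 to 6.30 in MT. The array's 12 probe sets for Bacillus subtilis transcripts, which have no target in mouse RNA, read 2.57 to 3.90, and a value no higher than the highest of them on its own array is called within background. The 3' minus 5' difference of control probe sets, a measure of RNA integrity, was 0.70 ± 0.17 in wild type and 0.51 ± 0.09 in MT for Gapdh (two-sided exact permutation test, p = 0.0857) and 0.91 ± 0.14 against 0.73 ± 0.12 for Actb (exact permutation p = 0.114).

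The families split between enzymes and inhibitors that were higher in MT and others that were lower. In the limma fit over all genes, 7 members were higher (Mmp7, Adam8, Timp2, Timp1, Adam17, Adam10 and Mmp14) and 8 were lower (Adam28, Timp4, Timp3, Adamts5, Adamts1, Mmp2, Adamts8 and Adam1a) at an adjusted p under 0.05. These 15 make 27.8% of the 54 members, where 41.1% of all genes passed. By direction, 13.0% of members were higher against 19.7% of all genes, and 14.8% were lower against 21.3%. The median difference of the members was -0.01, as it was for all genes. By level, of the 13 members at or above the median level of all genes 9 were called (69.2%, against 56.1% of all such genes), and of the 41 below it 6 were called (14.6%, against 26.0% of all such genes). The MT and wild-type values did not overlap for 15 members, or 27.8%, against 40.0% of all genes. Among single probe sets 27 of 83 members' probe sets were called, 13 higher and 14 lower, or 32.5% against 38.4% of all.

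**Figure D1:**
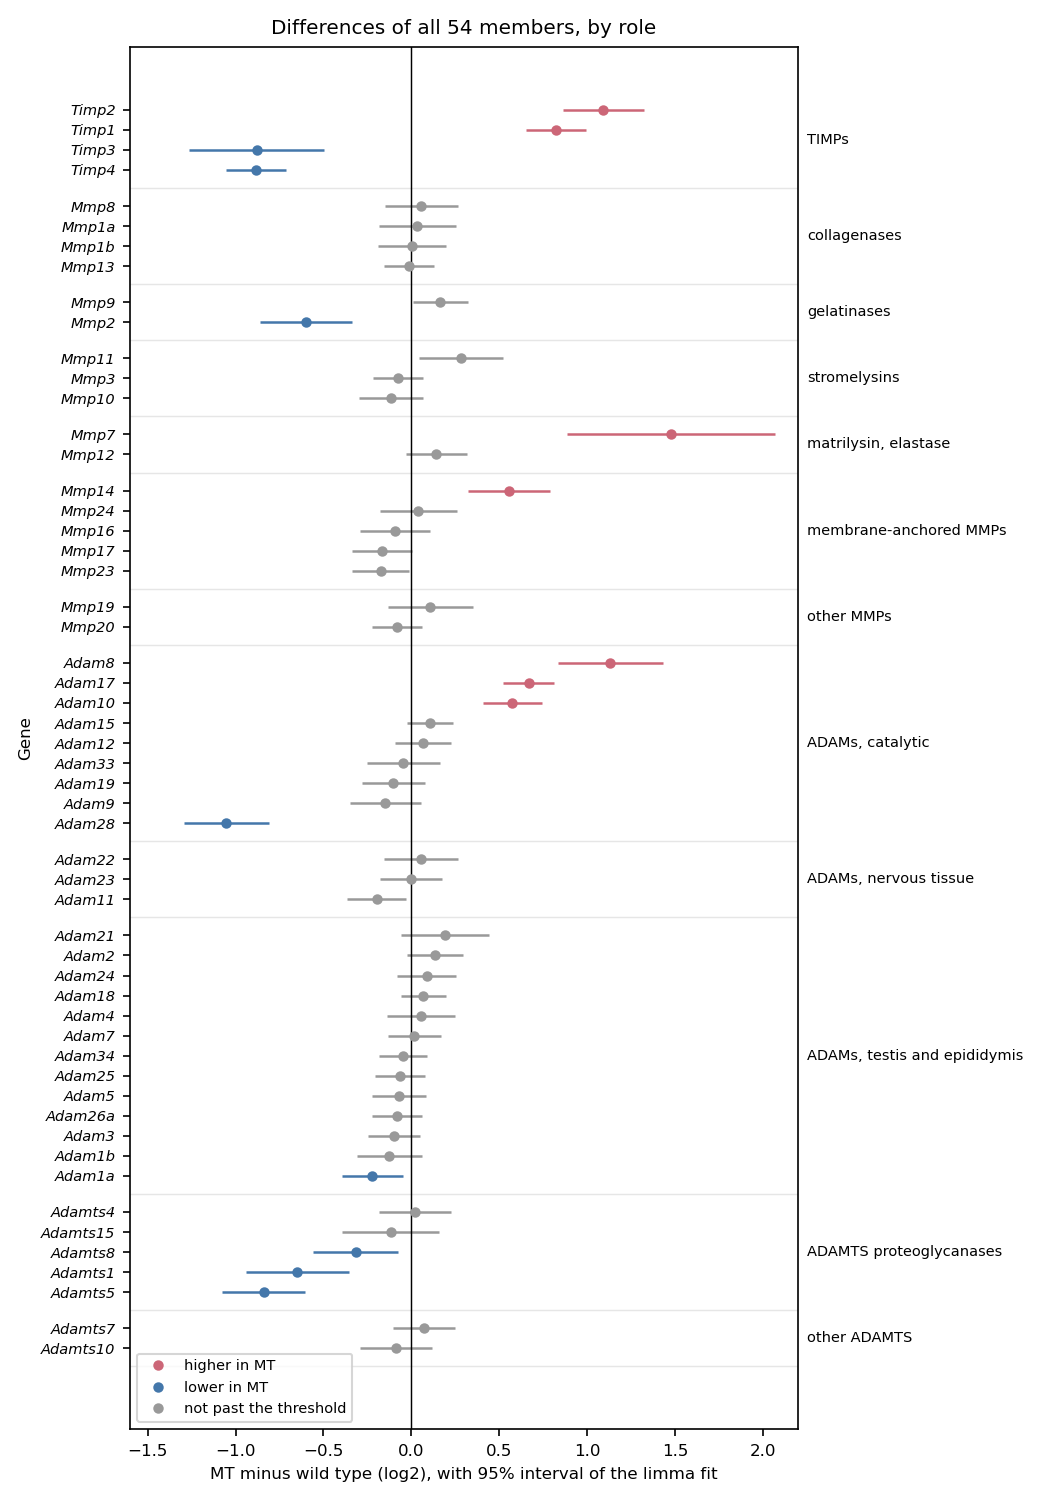
MT minus wild type (log2, x axis) for each of the 54 members (y axis), grouped by role, with the 95% interval of the limma fit; red points were higher, blue points lower and grey points did not pass. The 4 TIMPs divide into 2 higher and 2 lower, and the ADAMs of testis and epididymis lie near 0.

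All 4 tissue inhibitors passed, 2 higher and 2 lower. Of all genes 41.1% passed, and of those at or above the median level 56.1%. Timp1, a secreted inhibitor of most soluble MMPs, read 5.69, 5.66, 5.91 and 5.83 on wild-type arrays 1 to 4 and 6.50, 6.61, 6.54 and 6.72 on the MT arrays. Every MT value lay above every wild-type value, and the difference was 0.82 ± 0.08 (SE), a 1.77-fold rise (limma adjusted p = 9.40e-06). Timp2, which inhibits MMPs and also takes part in the activation of pro-MMP2 on the cell surface, read 10.12, 10.08, 10.27 and 10.61 in wild type and 11.32, 11.41, 11.36 and 11.36 in MT. The MT arrays lay close together and above all wild-type arrays, with a difference of 1.09 ± 0.11 (adjusted p = 1.01e-05).

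The other pair fell. Timp3, which binds to the matrix and inhibits ADAM17 and ADAMTS proteases besides MMPs, read 8.61, 7.72, 8.28 and 8.50 in wild type and 7.29, 7.16, 7.62 and 7.52 in MT. Wild-type array 2 came nearest to the MT values, without overlap, and the difference was -0.88 ± 0.17 (adjusted p = 0.0019). Timp4, an inhibitor with a restricted tissue distribution, read 10.86, 10.80, 10.84 and 10.76 in wild type and 9.89, 10.06, 9.74 and 10.02 in MT. The wild-type arrays lay within a narrow band, and the fall was by 0.89 ± 0.08 on the log2 scale, or 1.85-fold (adjusted p = 5.25e-06).

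The probe sets of a TIMP gave differences of unequal size. Of the 6 for Timp2, 3 were called higher, at 1.09, 0.67 and 0.35. The remaining 3 were at 0.34, 0.20 and -0.01 and did not pass (adjusted p = 0.0668, 0.125 and 0.929). The mean of all 6 gave a Timp2 difference of 0.44 (adjusted p = 0.00226). The value of 1.09 came from the probe set that reads highest when both groups are averaged, a choice that favours a probe set high in MT. In wild type alone another probe set had the highest mean, and it differed by 0.35 (adjusted p = 0.0206), with overlapping groups. For the other 18 members with several probe sets both choices gave the same one. All 4 probe sets for Timp3 fell, by 0.49 to 0.89 on the log2 scale, and both for Timp4 fell, by 0.82 and 0.89. The groups overlapped for the Timp3 probe sets at -0.49 and -0.89 (limma adjusted p = 0.0431 and 0.00584). Timp1 had 1 probe set. According to the RefSeq gene table, Timp1, Timp3 and Timp4 lie within the spans of the synapsin genes Syn1, Syn3 and Syn2. These neighbours, chosen after their values were seen, differed by -0.07 ± 0.09, -0.10 ± 0.10 and 0.10 ± 0.10 and did not pass (adjusted p = 0.606, 0.488 and 0.454).

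**Figure D2:**
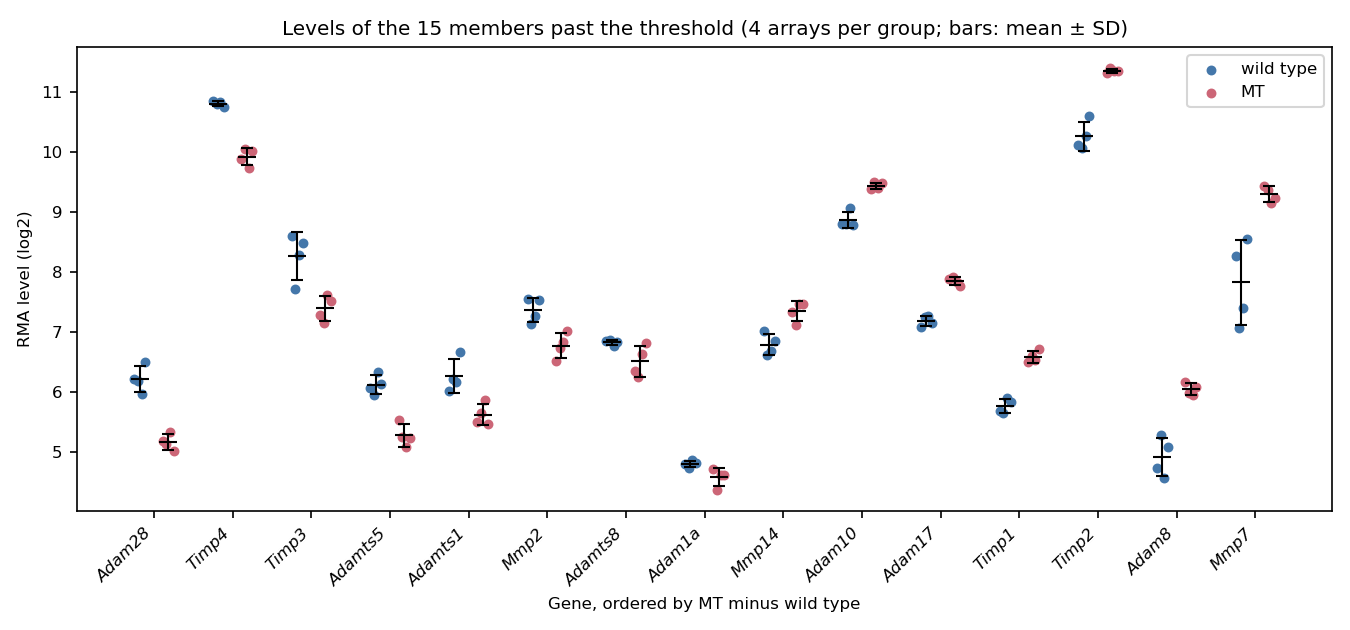
RMA levels (log2, y axis) on each array for the 15 members past the threshold (x axis), wild type in blue and MT in red, with mean and SD as black bars (n = 4 per group). The groups overlap for Adamts8 alone, where 1 MT array at 6.82 lies above the lowest wild-type array at 6.77.

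Mmp7, or matrilysin, a small MMP made by glandular epithelium that cuts E-cadherin and activates other secreted proteins, had the largest rise of the members. It read 8.28, 7.08, 7.41 and 8.56 on wild-type arrays 1 to 4 and 9.44, 9.38, 9.16 and 9.25 on the MT arrays. The wild-type arrays spread over more than a log2 unit and the MT arrays lay close together above them. The difference was 1.48 ± 0.27, a 2.78-fold rise (adjusted p = 0.00109), and between 1.22 and 1.72 with any 1 array left out. Mmp12, the macrophage elastase, was within background on all 8 arrays (3.18 ± 0.12 in wild type and 3.32 ± 0.10 in MT).

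The gene for Mmp7 is the last of a run of 10 MMP genes on chromosome 9, 9 of which were measured here: in order Mmp13, Mmp12, Mmp1b, Mmp3, Mmp1a, Mmp10, Mmp8, Mmp20 and Mmp7, with Mmp27 not measured. Of these 9, 1 passed the test, Mmp7, where 41.1% of all genes passed. Mmp13, Mmp12, Mmp1b, Mmp1a and Mmp20 were within background on all 8 arrays. Mmp10 was at 5.56 ± 0.09 in wild type and 5.44 ± 0.15 in MT, a difference of -0.11 with a 95% interval from -0.30 to 0.07. Mmp8, the collagenase of neutrophils, differed by 0.06, with an interval from -0.15 to 0.27, and the stromelysin Mmp3 by -0.08, with an interval from -0.22 to 0.06. Mmp1a and Mmp1b are close copies of each other, so their probe sets may not be specific.

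**Figure D3:**
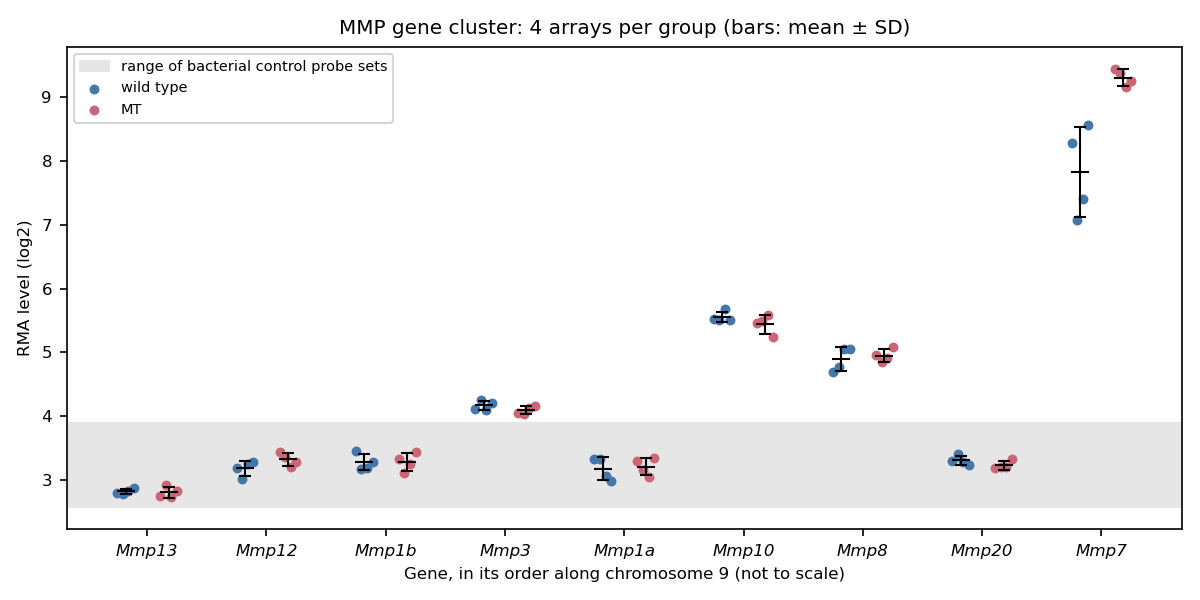
RMA levels (log2, y axis) of the 9 measured MMP genes of the chromosome 9 cluster, in gene order (x axis, not to scale), on 4 wild-type (blue) and 4 MT (red) arrays with mean and SD. The grey band is the range of the bacterial control probe sets, from 2.57 to 3.90; 5 genes lie within it, and Mmp7 is the gene whose groups are separated. Levels of different genes come from different probes and are not comparable with each other.

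A pair of short motifs was searched for in the promoters of the members. The RefSeq promoter table (GRCm38.p6, 250 bases before to 50 after each start) held 30 of the 54 members. The letters TGANTCA, a relaxed form of the core bound by AP-1 (Fos and Jun), read the same on both strands. They were found in 8 of the 9 cluster genes and in 3 of the other 21 members, against 8.97% of all genes with a window. The letters TATAAA, searched on the gene's own strand, were found in the same number, 8 of 9, and in 1 of the other 21 (Adamts1), against 9.77% of all genes. The TGANTCA match was spelled TGAATCA in Mmp20 and Adam25, and TGAGTCA or TGACTCA in the other members that held it. Windows of the cluster held 37.7% to 52.0% G and C, and those of other members a median of 60.7%. The stretches from 100 bases before to 20 after the start are given for Mmp7, which rose, and, for comparison, for Mmp10, Mmp3 and Mmp13, which did not pass, and for Mmp8, in which neither motif was found. All lie on the plus strand, and capitals mark TGANTCA and TATAAA.
Mmp7, chr9:7691990-7692109: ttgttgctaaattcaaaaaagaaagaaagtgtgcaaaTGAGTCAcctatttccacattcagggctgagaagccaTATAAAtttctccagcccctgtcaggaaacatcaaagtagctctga
Mmp10, chr9:7502242-7502361: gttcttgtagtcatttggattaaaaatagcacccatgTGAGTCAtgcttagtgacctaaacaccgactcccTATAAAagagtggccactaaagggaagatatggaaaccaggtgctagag
Mmp3, chr9:7445722-7445841: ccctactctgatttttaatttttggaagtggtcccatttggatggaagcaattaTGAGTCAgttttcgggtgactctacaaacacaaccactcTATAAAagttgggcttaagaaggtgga
Mmp13, chr9:7272414-7272533: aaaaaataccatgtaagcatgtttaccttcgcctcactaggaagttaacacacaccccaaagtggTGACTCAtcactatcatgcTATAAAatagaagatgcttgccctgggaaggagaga
Mmp8, chr9:7558329-7558448: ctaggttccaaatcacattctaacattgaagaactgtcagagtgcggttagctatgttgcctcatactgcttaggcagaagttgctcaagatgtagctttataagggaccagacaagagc
Mmp7 has a second window in the table, at a later start, without either motif. The TGANTCA match begins 63 bases before the start in both Mmp7 and Mmp10, and is spelled TGAGTCA in each. Mmp7 rose and Mmp10 did not pass. A match of letters does not show that a factor binds there, and any part of the motif in the rise of Mmp7 was not tested.

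The gelatinases, which cut denatured and basement-membrane collagen, did not move together. Mmp2, made largely by fibroblasts, read 7.55, 7.14, 7.28 and 7.54 in wild type and 6.53, 6.73, 6.84 and 7.02 in MT. The MT values were all lower, by 0.60 ± 0.12 on average (log2 difference -0.60, adjusted p = 0.00188), and the second Mmp2 probe set gave -0.69. Mmp9, which neutrophils and macrophages carry, read 5.77, 5.67, 5.74 and 5.87 in wild type and between 5.81 and 6.01 on the MT arrays. Its groups overlapped, and the difference of 0.17 ± 0.07, with an interval from 0.01 to 0.32, did not pass (adjusted p = 0.0886).

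Mmp14, the membrane-anchored enzyme that activates pro-MMP2, rose while Mmp2 fell. Its values were 7.02, 6.62, 6.69 and 6.86 in wild type and 7.34, 7.12, 7.47 and 7.47 in MT, without overlap. The difference was 0.55 ± 0.11 (adjusted p = 0.00145), and the second probe set rose by 0.69. None of the other 4 membrane-anchored MMPs measured passed, with differences from -0.18 (Mmp23) to 0.04 (Mmp24). The stromelysin Mmp11 differed by 0.28 ± 0.11 (adjusted p = 0.0579), just outside the threshold, and passed with the replicate block (adjusted p = 0.021). Mmp19, of the remaining MMPs, differed by 0.11 ± 0.11, with an interval from -0.14 to 0.35.

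Both main sheddases of the ADAM family rose. Adam10, which cuts Notch receptors, E-cadherin and amyloid precursor protein, read 8.80, 8.81, 9.08 and 8.80 on wild-type arrays 1 to 4 and 9.39, 9.50, 9.41 and 9.48 in MT. The MT arrays lay above wild-type array 3, the highest of its group, and the difference was 0.58 ± 0.08 (adjusted p = 0.000119). Of the 3 Adam10 probe sets 2 passed, at 0.58 and 0.40, and the other was at 0.32 (adjusted p = 0.064). Adam17, which releases tumour necrosis factor and ligands of the EGF receptor, read 7.09, 7.25, 7.27 and 7.16 in wild type and 7.90, 7.92, 7.84 and 7.78 in MT. The groups were separated by more than the range within either of them, with a rise of 0.67 ± 0.07 (adjusted p = 1.3e-05), and all 3 Adam17 probe sets rose, by 0.50 to 0.85.

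Adam8, a protease first known from leukocytes, rose as well. It read 4.73, 5.28, 4.58 and 5.09 in wild type and 6.17, 5.98, 5.96 and 6.09 in MT, without overlap, a 2.19-fold rise with a log2 difference of 1.13 ± 0.14 (adjusted p = 5.54e-05). Adam28, known from lymphocytes and epididymal epithelium, went the other way. Its values were 6.22, 6.19, 5.97 and 6.50 in wild type and 5.19, 5.14, 5.34 and 5.02 in MT. No values overlapped, and the difference was -1.05 ± 0.11 (adjusted p = 1.72e-05). This call rested on 1 probe set of the type shared by transcripts of the gene. The other Adam28 probe set read 3.65 ± 0.08 in wild type and 3.66 ± 0.08 in MT, a difference of 0.01 (adjusted p = 0.897). It was within background on 3 of the 8 arrays and close to it on the others, so it says little about Adam28 in either group. Of the 9 ADAMs with a catalytic site that are found in body tissues, 4 were called, or 44.4%, near the 41.1% of all genes. Of the 9, 3 were higher, 1 was lower and 5 did not pass. Those 5 were Adam9 (-0.15 ± 0.09), Adam12 (0.07 ± 0.07), Adam15 (0.11 ± 0.06), Adam19 (-0.10 ± 0.08) and Adam33 (-0.05 ± 0.09). For Adam15 the 4 MT arrays nevertheless lay above the 4 wild-type arrays, at 8.81 to 8.90 against 8.66 to 8.81, with an adjusted p of 0.189, and its other 3 probe sets were at -0.03, -0.01 and 0.03.

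**Figure D4:**
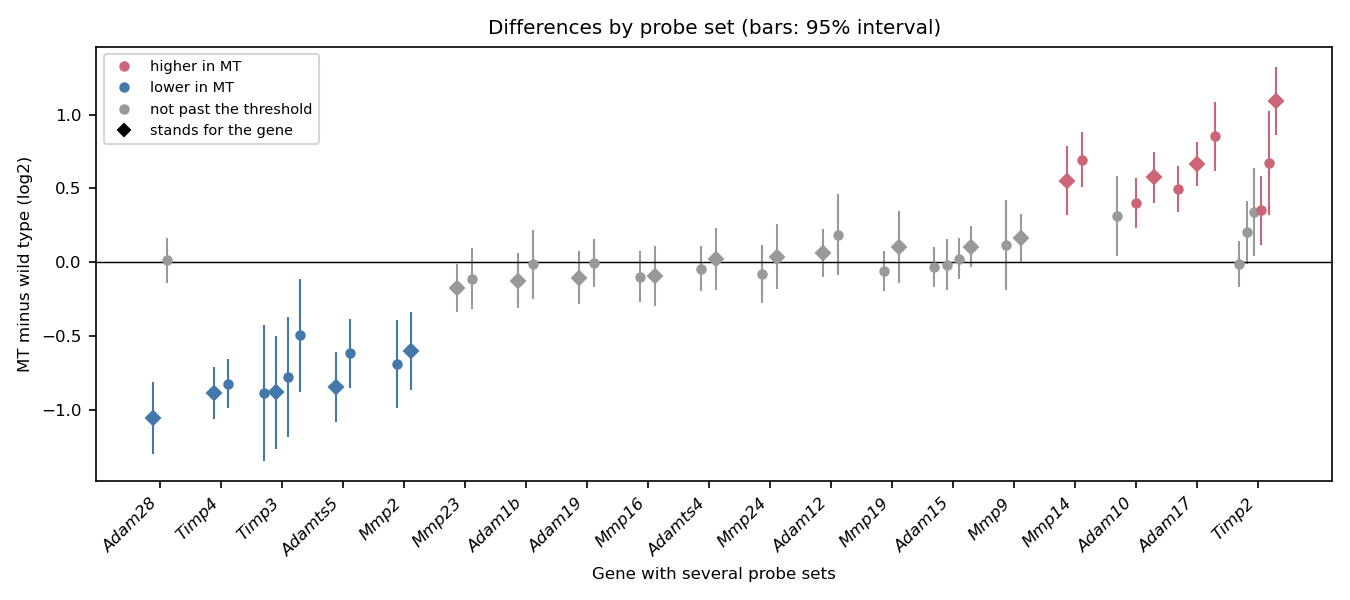
MT minus wild type (log2, y axis) for every probe set of the 19 members with several probe sets (x axis), with the 95% interval; red was higher, blue lower and grey did not pass, and a diamond marks the probe set that stands for the gene. Probe sets of 1 gene never passed in opposite directions, while those of Timp2 ran from -0.01 to 1.09 and those of Adam28 from -1.05 to 0.01.

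The ADAMs of testis and epididymis, which serve sperm maturation and fertilisation, were mostly near background. Of 13 measured, 6 were within background on all 8 arrays and 9 on at least 1. Their differences ran from -0.22 to 0.19, with a median of -0.05. Adam4, named after its value was seen, read highest of them, at 7.03 ± 0.13 in wild type and 7.09 ± 0.14 in MT, and did not pass. Adam1a, a subunit of the sperm protein fertilin, was the one that passed: it read 4.81, 4.74, 4.86 and 4.82 in wild type and 4.72, 4.37, 4.62 and 4.62 in MT, a difference of -0.22 ± 0.08 (adjusted p = 0.0437). Its groups did not overlap but nearly met, between wild-type array 2 and MT array 1, and the call was lost in 6 of the 8 fits that left out 1 array, at adjusted p-values from 0.0687 to 0.118. The ADAMs without a catalytic site, known from nervous tissue, did not pass: Adam22 differed by 0.06, with an interval from -0.15 to 0.27 (adjusted p = 0.683). Adam23 had an interval from -0.18 to 0.17, and Adam11 differed by -0.20 (adjusted p = 0.0600). Adam11 passed with the replicate block (adjusted p = 0.0324).

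Of the 7 ADAMTS proteases 3 were called (42.9%, close to the 41.1% of all genes), all of them lower. The 3 were among the 5 proteoglycanases, and of 2 other members, Adamts7 and Adamts10, none passed in limma, with 0 at an unadjusted p under 0.05. Adamts5, an aggrecanase, read 6.07, 5.96, 6.33 and 6.13 in wild type and 5.54, 5.26, 5.08 and 5.24 in MT, which gave a difference of -0.84 ± 0.11 (adjusted p = 7.96e-05). Its second probe set gave -0.61. Adamts1, which cuts versican, read 6.03, 6.23, 6.17 and 6.67 in wild type and 5.50, 5.66, 5.86 and 5.48 in MT, a difference of -0.65 ± 0.13 (adjusted p = 0.00241). Both genes were lower on every MT array than on any wild-type array. In the RefSeq table they are adjacent protein-coding genes on chromosome 16.

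Adamts8, another of the group, read 6.86, 6.87, 6.77 and 6.84 in wild type and 6.36, 6.26, 6.63 and 6.82 in MT. The MT arrays were spread, and MT array 4 fell among the wild-type values. Its difference of -0.32 ± 0.11 passed (adjusted p = 0.039) but was lost in 6 of the 8 fits that left out 1 array, at adjusted p-values from 0.0537 to 0.111. Adamts15, next to Adamts8 on chromosome 9, differed by -0.12 ± 0.13 (adjusted p = 0.501), and Adamts4 by 0.02 ± 0.09. Adamts10 differed by -0.09, with an interval from -0.29 to 0.12.

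Stromal markers were lower on the same arrays as Mmp2, Timp3, Timp4, Adamts1 and Adamts5. The background for the counts below is the 41.1% of all genes that passed, 19.7% higher and 21.3% lower. Of 11 fibroblast genes 8 were lower and 0 higher (median -0.92), with a summed signal of 12.57 to 13.07 on the wild-type arrays and 11.58 to 12.10 on the MT arrays, as log2 of the sum. They were led by the matrix proteins Dpt (-2.11 ± 0.17) and Mfap5 (-1.34 ± 0.21). All 10 measured smooth muscle genes were lower (median -1.04), with a summed signal of 13.47 to 14.16 against 12.33 to 13.21, led by Myl9 (-1.24 ± 0.23) and Actg2 (-1.23 ± 0.29). Adipocyte genes were lower for 4 of 5, and their summed signal varied widely in wild type, from 8.42 to 11.26, against 7.87 to 9.06 in MT. Adipoq was at -2.49 ± 0.77 and Fabp4 at -1.98 ± 0.54, and 2 adipocyte genes passed without MT array 1, 3 or 4, and 1 with the trend and robust prior. Over the same wild-type arrays Timp4 lay between 10.76 and 10.86. Of 10 endothelial genes 1 was lower, Tek (-0.50 ± 0.12), with a summed signal of 9.18 to 9.45 against 9.12 to 9.34; without wild-type array 2 or MT array 3 the count was 2, and without wild-type array 4 another was higher. No gene of these 4 lists was within background on all 8 arrays. Their part in the fall of the proteases and inhibitors was not tested.

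Leukocyte and luminal markers were measured beside the members that rose. As background, 41.1% of all genes passed, 19.7% higher and 21.3% lower. Of 13 macrophage genes 6 were higher and 2 lower, with a summed signal of 10.41 to 11.17 in wild type and 11.33 to 11.59 in MT. The protease Ctss (from 6.98 ± 0.39 to 9.38 ± 0.26) and the endotoxin co-receptor Cd14 (a difference of 1.30 ± 0.09) led the macrophage genes. The 2 lower, named after their values were seen, were Mrc1 (-0.53 ± 0.17) and Cd163 (-0.42 ± 0.13). The count of lower genes became 1 without wild-type array 3 or MT array 4 and 0 without MT array 1. Cd68, Csf1r, Lyz2, Itgam and Fcgr3 differed by 0.03 to 0.37 and did not pass. Of 9 granulocyte genes 4 were higher and 0 lower (44.4% called, near the 41.1% of all genes). Their summed signal was 8.06 to 8.30 in wild type and 10.36 to 11.20 in MT. It gives most weight to Ltf, which read highest of the list in MT, at 10.35 ± 0.43. The 4 were Ltf (4.05 ± 0.22), S100a8 (3.33 ± 0.14) and, named after their values were seen, S100a9 (2.72 ± 0.17) and Csf3r (0.63 ± 0.08), while Cxcr2, Elane, Mpo, Camp and Ngp differed by 0.07 to 0.20 and did not pass. Of 8 genes of T and B cells 3 were higher and 0 lower (37.5% called, near the 41.1% of all genes). Cd3g (0.76 ± 0.21) and Cd4 (0.28 ± 0.06) were among the 3, and the summed signal was 8.17 to 8.27 against 8.41 to 9.11. MT array 2 stood apart on several of them, named after their values were seen: Cd79b read 6.85 there and 4.99 to 5.27 on the other MT arrays, Ms4a1 6.36 against 4.64 to 5.15, and Cd3g 5.23 against 4.06 to 4.30. Without MT array 2, 5 of the 8 were higher. Of 9 luminal genes 7 were higher, by 0.60 to 1.26, and 2 were lower, with a median of 0.73. The 2 lower were Pbsn (-4.16 ± 0.29) and Spink1 (-3.03 ± 0.09). The luminal summed signal was 15.28 to 15.40 in wild type and 14.95 to 15.03 in MT. It gives most weight to Spink1 and Pbsn, which read highest of the list in wild type, at 13.81 and 13.28. Of 7 basal genes 4 were lower, led by Krt15 (-1.35 ± 0.19) and Krt5 (-1.07 ± 0.12), with a summed signal of 10.49 to 11.14 in wild type and 10.11 to 10.16 in MT. None of the genes of these lists was within background on all 8 arrays. The part of such cells in the rise of Mmp7, Mmp14, Adam8, Adam10, Adam17, Timp1 and Timp2 was not tested. Of 5 genes of testis and epididymis, set beside the ADAMs of those tissues, 2 were lower (40.0%, near the 41.1% of all genes). They were Prm1 (-0.20 ± 0.07) and Prm2 (-0.33 ± 0.09), 1 of which was lost without wild-type array 3 or 4 or MT array 1, 2 or 3. Tnp1 and Tnp2 were within background on all 8 arrays, and the list's summed signal was 7.30 to 7.46 against 7.15 to 7.21.

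Partners of the sheddases, and 14 of 29 of their substrates, were higher more often than lower. Of all genes 19.7% were higher and 21.3% lower, the background for the counts by direction. Of 8 measured genes that escort ADAM10 or ADAM17 to the cell surface 5 were higher and 1 was lower, with a median of 0.44. The ADAM10-binding tetraspanins Tspan17 and Tspan33 rose by 0.97 ± 0.12 and 0.75 ± 0.15, and Tspan5 of the same group, named after its value was seen, fell by 0.49 on the log2 scale. Rhbdf1 and Frmd8, which support the traffic of ADAM17, rose by 0.66 ± 0.11 and 0.59 ± 0.10. Of 29 genes for proteins that ADAMs shed 14 were higher and 3 lower, with a median of 0.22. They include the membrane-bound chemokine Cxcl16 (1.53 ± 0.07), the heparan sulfate proteoglycan Sdc1 (1.29 ± 0.10), the adhesion molecule Icam1 (1.17 ± 0.12) and Tnf (1.03 ± 0.10). Each of these 4 had an adjusted p no higher than 1.41e-05. The receptor tyrosine kinases Axl (-0.64 ± 0.16) and Mertk (-0.66 ± 0.10) and the junction protein Jam3 (-0.34 ± 0.07), the 3 that were lower, were chosen after their values were seen.

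Activators and other regulators of MMPs went both ways, with 5 of 19 higher, 3 lower (together 42.1%, near the 41.1% of all genes) and a median of 0.05; with wild-type array 4 and MT array 2 both left out 1 was lower. Reck, a membrane-anchored inhibitor of several MMPs, fell from 6.26 ± 0.34 to 5.27 ± 0.22 (-0.99 ± 0.16, adjusted p = 0.000444), as Timp3 and Timp4 did. Thbs1, a matrix protein that binds MMPs, rose by 1.25 ± 0.20. Cd44, a hyaluronan receptor that can hold MMPs at the cell surface, rose by 2.19 ± 0.10. Lcn2, whose human form is known to complex with MMP9 in neutrophils, rose by 4.12 ± 0.13, while Mmp9 itself did not pass.

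Genes for matrix proteins that these enzymes cut were lower in 18 of 28 and higher in 0, with a median of -0.59. The basement-membrane linker Nid1 fell by 1.57 on the log2 scale (SE 0.20), and the small proteoglycans Dcn (-1.28 ± 0.09), Lum (-1.12 ± 0.19) and Fmod (-1.10 ± 0.16) fell as well. This list holds 5 genes of the fibroblast list, whose summed signal is given above. Of 3 measured relatives of the ADAMTS proteases without a catalytic domain, Adamtsl5 (-0.34 ± 0.07) and Papln (-0.43 ± 0.11) fell, 1 of them without both of those arrays. Of 10 other metalloproteases 4 passed, also near the background at 40.0%. Of these 1 rose, the aminopeptidase Anpep (1.74 ± 0.12), and 3 fell, led by the procollagen C-proteinase Bmp1 (-0.57 ± 0.10), with Enpep (-0.44 ± 0.10) and Ece1 (-0.28 ± 0.09).

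**Figure D5:**
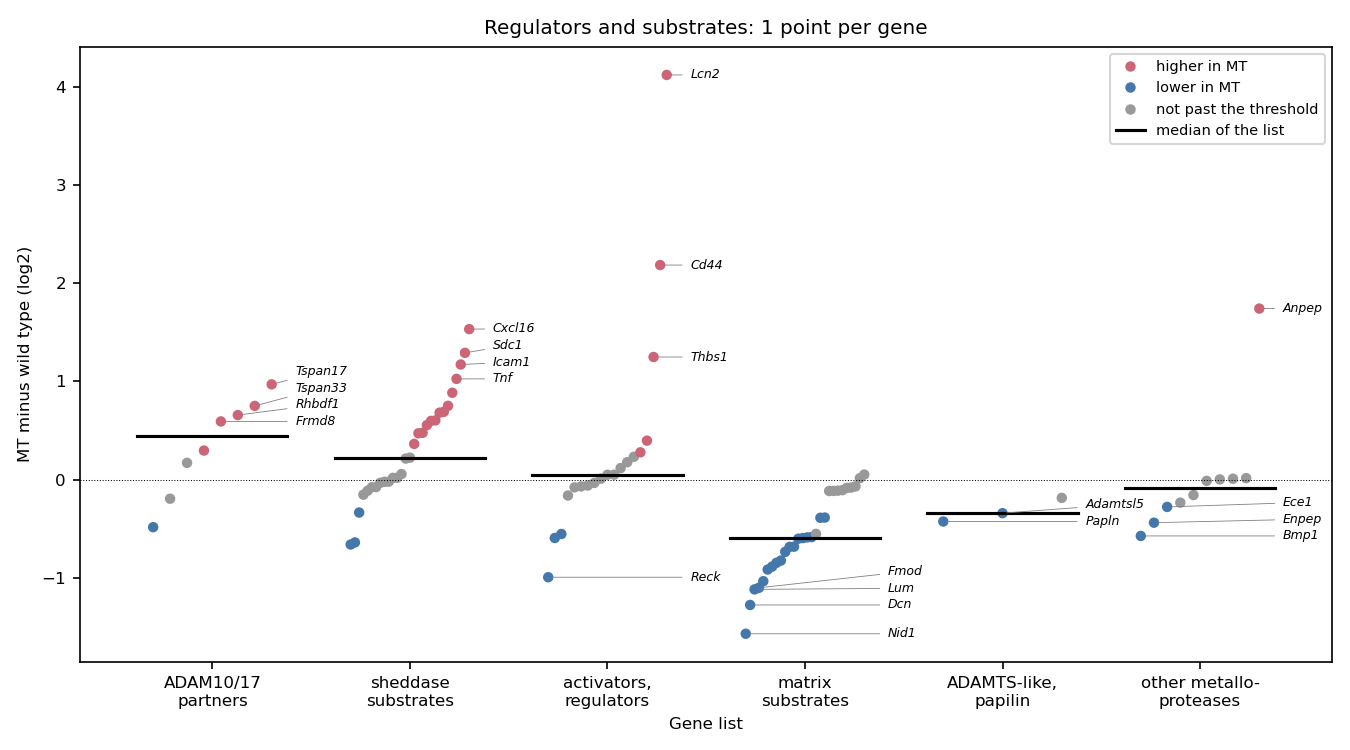
MT minus wild type (log2, y axis) for the genes of 6 lists of regulators and substrates (x axis), 1 point per gene, with the median as a black line; red was higher, blue lower and grey did not pass. Partners and substrates of the sheddases lie mostly above 0 (medians 0.44 and 0.22) and matrix substrates below it (median -0.59).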

How the data were processed

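Ventral prostate RNA was measured on 8 Affymetrix arrays, 4 labelled wild type and 4 MT. The deposited values are log2 signals that the authors made with RMA, per the submitters' processing notes, which state no version in the text used here. Of 22690 probe sets 64 were controls, 20380 had 1 gene symbol, 691 several and 1555 none, by an older platform annotation; 20351 of the 20380 matched the RefSeq gene table by identifier, which changed 0 symbols. Each of 12393 genes was read from whichever of its probe sets had the highest average signal.

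Values were used as deposited, without a filter. The main test was limma (lmFit and eBayes, no covariate, two-sided, Benjamini-Hochberg adjustment over 12393 genes, or over 20380 probe sets for values of single probe sets, threshold 0.05), and was tested on simulated data. Errors of levels are SD (n = 4) and those of differences SE; the number of arrays limits the precision. The work used limma 3.58.1 in R 4.3.3, and pandas 2.3.3 and matplotlib 3.10.9 in Python 3.11.15.

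Members and lists were chosen with earlier results of these data known. By rule, the members named were those past the threshold, all Timp genes, Mmp2, Mmp9, Mmp14, Adam10, Adam17 and Adamts1, and the highest on average in each role group without a call; others complete their role group. Up to 4 genes past the threshold with the largest changes were named per list of regulators and substrates and up to 2 per cell type list. Alternatives were a replicate block, another prior, array weights, other probe set rules, a filter on low levels, rescaling, stricter thresholds and the omission of each array. The joint omission of wild-type array 4 and MT array 2 was a choice made after seeing the data. Arrays with the same number in their titles deviated together (4 correlations, 0.10 to 0.18). For all 8 arrays the best partner in the other group was the array of the same number. Such arrays were taken as pairs in the block, while the main test did not use the pairs. A planned search for a zinc-binding motif in the proteins was not run.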

Additional observations from a re-analysis of the deposited data

Results flagged for a closer look

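In 2 of the 42 groups of 4 arrays examined for the 21 named members, 1 array stood far from the other three by Dixon's criterion, which chance meets in about 1 of 20 groups. Adam10 read 9.08 on wild-type array 3 and 8.80 to 8.81 on the other wild-type arrays. Mmp10 read 5.68 on wild-type array 3 and 5.51 to 5.52 on the others.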

How the results depend on the processing

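Of the 15 called members, 13 kept their call in each of the 8 fits that left out 1 array and in the fit that omitted both wild-type array 4 and MT array 2; the exceptions were Adam1a and Adamts8. Adam1a was also lost in limma with a trend and robust prior (adjusted p = 0.0525) and with array weights (0.0557), and Adamts8 with array weights (0.0647), which left 6 members lower. With 1 array left out, 7 to 8 members were higher and 6 to 8 lower. When limma's treat tested for changes beyond 0.5, 4 members were higher (Timp1, Timp2, Adam8 and Mmp7) and 2 lower (Adam28 and Timp4), among 877 genes in all. Among genes at or above the median level 4 members were lower, and among such probe sets 8, since fewer members were tested. Among probe sets of the unique type Adam28 was at 0.01, because its called probe set was left out; averaged over probe sets it was at -0.52 and Timp2 at 0.44. Differences near 0 changed sign without 1 array: Adam22 ranged from -0.03 (without MT array 1) to 0.12, Mmp19 from -0.01 (without MT array 3) to 0.17 and Mmp8 from -0.01 (without wild-type array 1) to 0.11. With the replicate block 8 members were higher and 9 lower, adding Mmp11 and Adam11 and losing none, and 5211 genes were called. Mmp23 and Adam11 passed in limma after a repeated quantile normalization (adjusted p = 0.042 and 0.0484) and after median centring (adjusted p = 0.0277 and 0.0321), which moved the median of all genes to -0.05.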
